A study of Mus musculus with 48 samples.

Results

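The olfactory bulb astrocyte libraries of postnatal day 14 (P14) were compared with those of postnatal day 7 (P7). The comparison took the 3 P14 and the 3 P7 libraries by their age, tissue and cell type labels, 6 of the 48 mouse RNA-seq libraries of the study. The study profiled astrocytes from 3 brain regions, olfactory bulb, cortex and hippocampus, at P1, P7 and P14. At P28 its mice were labelled Gabbr1 control or Gabbr1 cKO (conditional knockout). Gabbr1 encodes a subunit of a receptor for the inhibitory transmitter GABA. The P7 and P14 labels name the olfactory bulb, the astrocyte cell type and the age. No genotype, strain, sex, treatment or sorting step was given in those labels, and nothing in them says whether each library came from its own animal. The p-values therefore measure the spread between libraries of the same region and age, which may be technical. In the main P14 against P7 test that spread was pooled over the 9 bulb libraries of P1, P7 and P14. The tissue was dissociated, and 500 pg to 1 ng of total RNA entered each library.

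Astrocytes are glial cells that take up glutamate and GABA, buffer potassium and water, supply neurons with fuel and cholesterol, and secrete proteins that act on synapses. In the olfactory bulb, the relay for smell, immature neurons keep arriving from the subventricular zone after birth and turn into inhibitory interneurons around the mitral and tufted projection neurons. Astrocytes of this age grow fine processes among the synapses of the bulb and switch from genes of their progenitors to genes of mature glia.

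Values are normalized read counts, the reads of a gene divided by a scaling factor of its library. The P14 libraries held 1773226 to 2669394 reads and the P7 libraries 3965254 to 5095842, so genes with few reads were measured less precisely at P14. At P14, 12699 to 13233 genes had at least 1 read, against 16375 to 16749 at P7, and the 50 genes with the most reads took 22.0% to 23.1% of the reads without the ribosomal precursor Rn45s, against 12.8% to 14.3%. Over log2 values of all tested genes, Pearson's r between replicates was 0.957 to 0.964 at P7 and 0.853 to 0.861 at P14. The biological coefficient of variation by edgeR was 12.9% at P1, 21.3% at P7 and 46.0% at P14. The X-inactivation RNA Xist was at 11149 and 12266 in P7 replicates 1 and 3 and at 1075 in P14 replicate 3. It was at most 3.57 in the other P7 and P14 libraries, where the Y-linked Ddx3y was high. The ages thus differed in sex makeup.

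P7 replicate 3 stood apart from the other P7 libraries towards P1. Its r with the 3 P1 libraries was 0.933 to 0.946, against 0.885 to 0.899 for the other P7 replicates. It held the lowest P7 level of many astrocyte genes below and the highest of many neuroblast genes, so counts of members are also given without it where they differed. The cause of its position was not tested.

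From P7 to P14, 5396 of 11490 tested genes changed (47%, limma with Benjamini-Hochberg adjusted p under 0.05). Of the tested genes, 2343 rose (20.4%) and 3053 fell (26.6%). The 3 P14 libraries all lay above the 3 P7 libraries for 2660 genes (23.2%) and below them for 3390 (29.5%), so that 6050 (52.7%) did not overlap either way. Without P7 replicate 3, 1885 genes rose and 2316 fell. The median log2 fold change of all tested genes was -0.20, against -0.13 under TMM scaling, -0.02 under quantile normalization and 0.00 in edgeR, whose calls split into 2767 higher (24.1%) and 2587 lower (22.5%). Falls outnumbered rises in limma under the deposited, TMM and quantile scalings, and rises outnumbered falls in edgeR. The gene groups below are read against the median of -0.20.

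The genes that define astrocytes rose. All 10 astrocyte markers were higher at P14 with a median log2 fold change of 3.05, and their summed level was 11140.3 to 20291 at P7 and 131764 to 149152 at P14. Markers of the labelled cell type were thus present in every library, far higher at P14. S100b, a calcium-binding protein of mature astrocytes, stood at 25.8, 25.7 and 13.1 in the P7 libraries and at 531, 380.4 and 471 in the P14 libraries. Its log2 fold change was 4.40 (standard error 0.41, limma adjusted p 1.58e-05). Aldh1l1, a folate enzyme used to mark astrocytes of all ages, went from 197, 279 and 301 to 465, 562 and 551, a log2 fold change of 1.04 (standard error 0.18, limma adjusted p 0.000789). In bulk libraries, more astrocytes in the sample and more RNA of a gene per astrocyte cannot be told apart.

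A window upstream of S100b is shown because S100b had the largest rise among the 10 markers. The window was also picked because it holds a half-site of the NFI factors. Of these factors Nfia and Nfix rose and Nfib did not pass, and whether any of them acts on S100b was not tested. Windows came from a RefSeq table of promoters (build GRCm38.p6). Not every chromosome was used, so a marker could be missing for that reason. Of the 10 markers, 7 matched, and 2 of those 7, S100b and Aldoc, had TTGGCA on either strand within 250 bases before a start. Of the 8 windows of these 7 markers 2 held it, against 12.3% of all 32851 windows of that length used. The match is a description of these letters and not of a bound site. The window lies at chr10:76253586-76253835 on the plus strand, is written 5′ to 3′, and has the half-site in capitals.
S100b: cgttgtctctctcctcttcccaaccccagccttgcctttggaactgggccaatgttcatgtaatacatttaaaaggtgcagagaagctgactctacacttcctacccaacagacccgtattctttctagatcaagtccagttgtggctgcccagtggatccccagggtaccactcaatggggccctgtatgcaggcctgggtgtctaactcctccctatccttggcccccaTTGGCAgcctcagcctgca

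**Figure D1:**
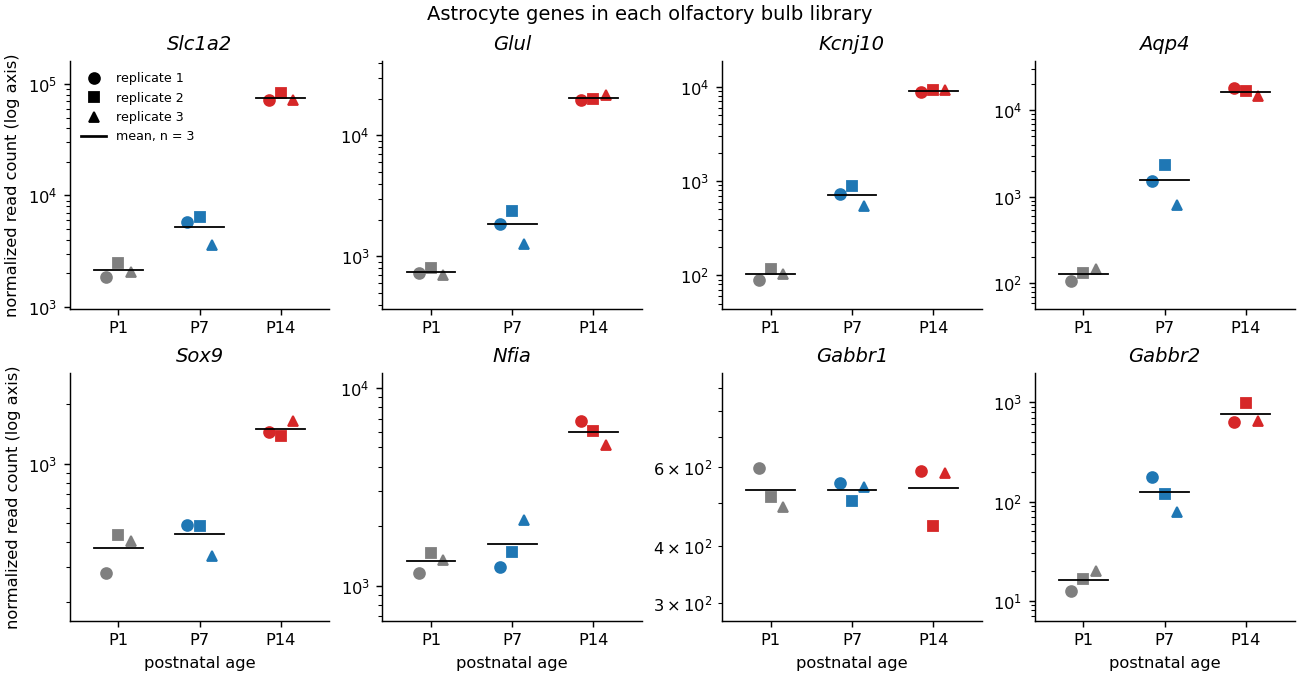
Normalized read count (log axis) of 8 astrocyte genes in each olfactory bulb library at P1, P7 and P14, with points for replicates and a line for the mean of 3. The P14 libraries lie above all P7 libraries for every gene shown except Gabbr1, and P7 replicate 3 (triangle) is the lowest P7 library for Slc1a2, Glul, Kcnj10, Aqp4, Sox9 and Gabbr2.

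The transporters and enzymes that clear glutamate and GABA rose together. All 10 members changed upwards, with a median log2 fold change of 2.68 against -0.20 over all genes. Slc1a2, the main glutamate transporter of mature forebrain astrocytes, stood at 5718, 6358 and 3574 at P7 and at 72248, 83476 and 72076 at P14. The ages did not overlap, and the log2 fold change was 3.90 (standard error 0.20, limma adjusted p 9.02e-07). Slc1a3, the glutamate transporter already used by young astrocytes, went from 6005, 8375 and 4813 to 32391, 29228 and 25999.7, a log2 fold change of 2.22 (standard error 0.21, limma adjusted p 1.72e-05). Glul makes glutamine from the glutamate taken up. Its counts rose from 1848, 2393 and 1273 to 19728, 19877 and 21643, by 3.52 on the log2 scale (standard error 0.19, limma adjusted p 1.07e-06). The GABA transporter Slc6a11 stood at 2014, 2527 and 1658 at P7 and at 12173, 13781 and 13148 at P14 (log2 fold change 2.68, standard error 0.19, limma adjusted p 3.21e-06).

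Of 16 genes for potassium, water and cell coupling, 15 rose and the other did not pass the test, with a median of 2.86. Kcnj10, the inward rectifier that carries potassium into astrocytes, was at 724, 874 and 540.5 at P7 and at 8676, 9231 and 9216 at P14 (log2 fold change 3.69, standard error 0.17, limma adjusted p 5.66e-07). Its partner subunit Kcnj16 had the largest change of the group, from 114, 123 and 42.7 to 1837, 2669 and 1534 (4.52, standard error 0.39, limma adjusted p 9.95e-06). For both subunits the lowest P14 library lay far above the highest P7 library. The water channel Aqp4 of perivascular endfeet went from 1529, 2359.7 and 808 to 17905, 16693 and 14768 (3.52, standard error 0.30, limma adjusted p 9.51e-06). The connexins Gja1 and Gjb6, which join astrocytes through gap junctions, rose by 3.05 (standard error 0.21) and 3.42 (standard error 0.33) on the log2 scale, with limma adjusted p of 3.02e-06 and 1.96e-05. Slc4a4, a bicarbonate cotransporter, rose by 2.89 (limma adjusted p 1.48e-06).

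Of the subunits of the GABA-B receptor, Gabbr2 rose and Gabbr1 did not pass the test, and the difference between them was not tested. Gabbr1, which binds GABA, was at 553, 505 and 542 in the P7 libraries and at 588, 444 and 582 in the P14 libraries. The ages overlapped, and the log2 fold change was 0.00 (standard error 0.15, limma adjusted p 0.994). Under quantile normalization it was -0.19. Gabbr2, the subunit that couples the receptor to G proteins, was at 178, 119 and 78.9 at P7 and at 632, 991 and 641 at P14. All P14 libraries lay above all P7 libraries, with a log2 fold change of 2.62 (standard error 0.31, limma adjusted p 7.15e-05).

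Among 16 astrocyte receptor genes, 15 were tested and 12 rose, with a median of 2.12 (11 rose without P7 replicate 3). The other receptors included GABA-A subunits. Gabrg1 went from 175, 204 and 71.8 to 1316, 1297 and 852 (log2 fold change 3.04, standard error 0.37, limma adjusted p 8e-05). Gabra2 was at 373, 323 and 234 at P7 and at 463, 345 and 225 at P14, overlapping ranges (0.12, standard error 0.28, limma adjusted p 0.759). Ntsr2, a neurotensin receptor of mature astrocytes, had the largest change of the group, from 20.3, 12.9 and 0.593 to 278, 356 and 207 (5.14, standard error 0.86, limma adjusted p 0.000627). Ednrb, a receptor for endothelins, was at 1435, 1812 and 775 at P7 and at 7279, 6374 and 5877 at P14 (2.36, standard error 0.26, limma adjusted p 4.64e-05). The FGF receptor Fgfr3 rose by 3.12 (standard error 0.42, limma adjusted p 0.000163), from 107, 147 and 38.0 to 805, 804 and 626.

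Of 14 secreted or membrane factors through which astrocytes act on synapses, 11 rose and 1 fell (median 1.79). Sparcl1, also called hevin, a secreted protein that promotes excitatory synapses, stood at 1973, 2894 and 1303 at P7 and at 24790.4, 22439.7 and 21056 at P14 (log2 fold change 3.54, standard error 0.23, limma adjusted p 2.14e-06). Il33, a cytokine that acts on microglia, went from 40.6, 40.0 and 3.56 to 719.5, 482 and 580.3 (4.89, standard error 0.78, limma adjusted p 0.000457), with P7 replicate 3 far below the other P7 libraries. Chrdl1, a secreted regulator of synapse maturation, and Mertk, an engulfment receptor, rose by 2.59 and 3.43 (limma adjusted p 1.05e-05 and 0.000727). The member that fell was the adhesion protein Nlgn2, known from inhibitory synapses, at 269.8, 245 and 314 at P7 and at 165, 71.7 and 147 at P14 (-1.19, standard error 0.27, limma adjusted p 0.00442). Without P7 replicate 3, 9 members of this group rose and 1 fell.

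Of 14 transcription factors of the astrocyte lineage, 12 rose and none fell (median 1.54). Without P7 replicate 3, 10 rose and none fell, and under quantile normalization 11 rose and 1, Nfib, fell. Nfia, an NFI factor that drives gliogenesis, was at 1239, 1489.7 and 2159 at P7 and at 6799.9, 6068 and 5127 at P14 (log2 fold change 1.91, standard error 0.19, limma adjusted p 2.53e-05). Its relative Nfib was at 2369, 2414 and 4577 and at 3033, 3206 and 2623, so the ages overlapped (-0.01, standard error 0.22, limma adjusted p 0.967). Its sign was positive under TMM scaling and in edgeR. Without P7 replicate 3, which held the highest count, it was 0.30. Sox9, a factor that specifies glia, rose from 491, 484 and 341 to 1445, 1385 and 1639.6 (1.78, standard error 0.20, limma adjusted p 4.24e-05). Npas3 and Id4 had the largest rises of the group, 2.69 and 2.45 (limma adjusted p 3.21e-06 and 2.29e-05).

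**Figure D2:**
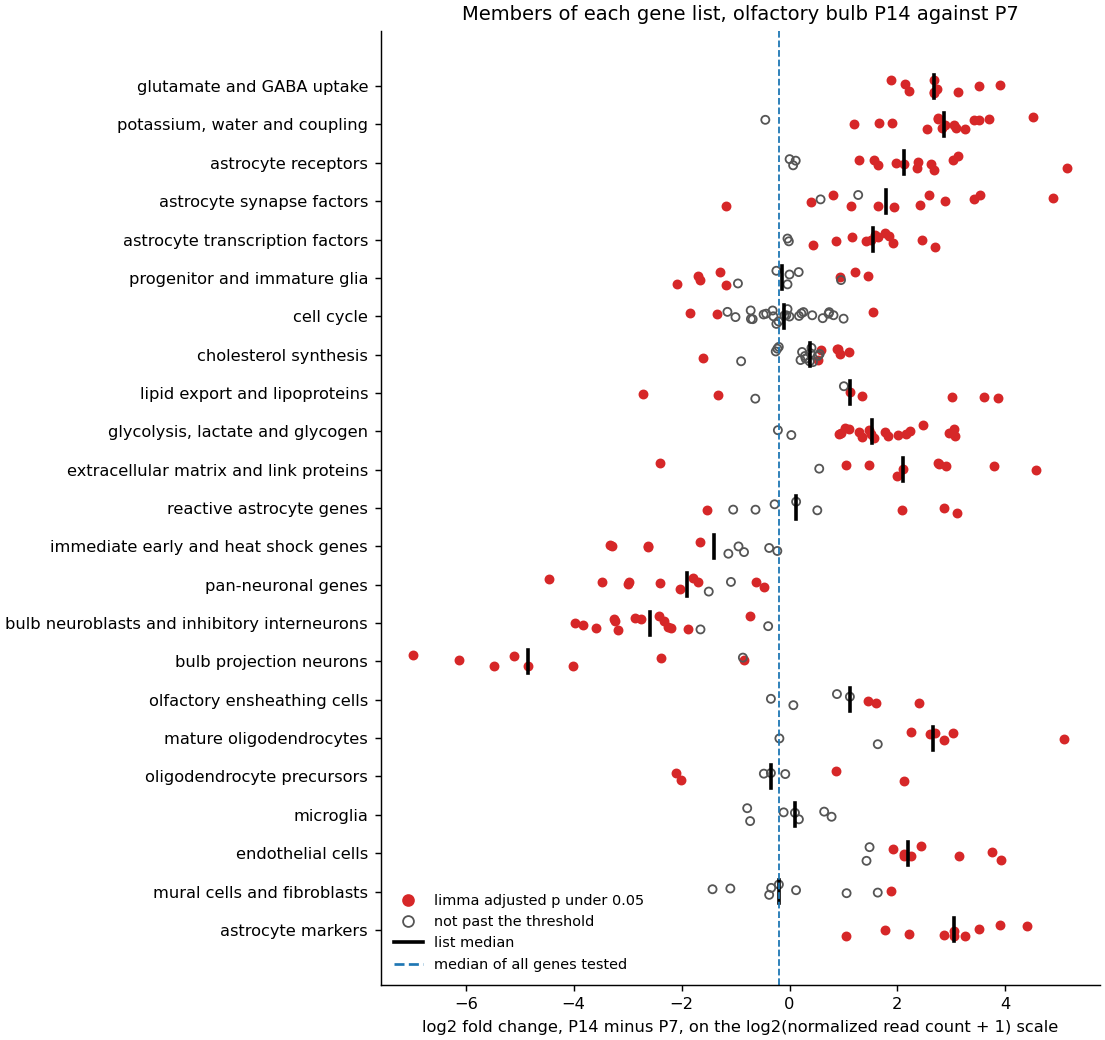
Log2 fold change from P7 to P14 of each tested member of the gene lists with at least 5 tested members (ribosomal and respiratory lists not drawn), filled where the limma adjusted p was under 0.05, with a bar at each list's median. The dashed line is the median of all tested genes at -0.20. The lists of astrocyte markers, uptake, coupling, receptors, synapse factors and transcription factors lie to its right with medians of 1.54 to 3.05. Reactive astrocyte genes have a median of 0.12. The 3 lists of pan-neuronal, neuroblast and projection neuron genes lie to its left with medians of -1.91 to -4.84, and cell cycle genes around it at -0.10.

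Genes of progenitors and immature glia moved both ways, as all tested genes did. Of 18 listed genes, 14 were tested, 3 rose and 5 fell, with a median of -0.14. Over all tested genes 20.4% rose and 26.6% fell. The 4 members that were not tested had no reads at P14. Without the filter 3 of the 18 rose and 7 fell, beside 2327 higher and 4479 lower of 18886 genes. The intermediate filament gene Nes, a progenitor marker, fell from 265, 395 and 559 to 137, 199.9 and 179 (log2 fold change -1.19, standard error 0.25, limma adjusted p 0.00289). Tnc, a matrix protein of radial glia, went from 637, 1282 and 678 to 358, 288 and 365 (-1.29, standard error 0.25, limma adjusted p 0.0016). The factors Sox4 and Sox11, high in newborn neurons as well as in progenitors, fell by 1.70 and 1.67 (limma adjusted p 0.000195 and 0.00323). Fabp7, a fatty acid binding protein of radial glia and young astrocytes, rose instead, from 3713, 6163 and 4067 to 15248, 11202 and 11330.3 (1.46, standard error 0.19, limma adjusted p 0.000129). Its rise was 0.15 under quantile normalization and did not pass there. Vim and Egfr rose too, by 0.93 and 1.22 (limma adjusted p 0.00158 and 0.00428), and Egfr did not pass with array weights (limma adjusted p 0.0908).

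Most cell cycle genes did not pass the test. Of 29 listed, 27 were tested, 1 rose, 2 fell and 24 did not pass, with a median of -0.10. That median was 0.15 in edgeR and 0.35 under quantile normalization, where 3 rose and 3 fell. The counts moved when 1 library was left out, to 1 rise and 1 fall without P7 replicate 3, 2 and 2 without P7 replicate 2, 2 and 4 without P14 replicate 1, and 4 and 4 without P14 replicate 3. The median then ran from -0.41 (without P7 replicate 1) to 0.02 (without P7 replicate 3). Mki67, a marker of dividing cells, was at 359, 705 and 593 at P7 and at 244, 583 and 254 at P14 (log2 fold change -0.68, standard error 0.33, limma adjusted p 0.109). It passed as a fall without P14 replicate 2 (-1.09, limma adjusted p 0.00573), without P7 replicate 1 (-0.96, limma adjusted p 0.0437) and under quantile normalization (-0.86, limma adjusted p 0.0437). Top2a, the mitotic topoisomerase, was at 199, 360.3 and 394 and at 328, 808 and 385 (0.62, standard error 0.33, limma adjusted p 0.151), and passed as a rise in edgeR on thinned reads (0.84, edgeR adjusted p 0.0441). The ages overlapped for both genes, and P14 replicate 2 held the highest P14 count of each. Rrm2, a subunit that makes deoxynucleotides, rose by 1.55 (standard error 0.38, limma adjusted p 0.00642), from 45.5, 50.8 and 68.8 to 83.5, 298 and 167. The replication helicase genes Mcm2 and Mcm7 fell by 1.84 and 1.35 (limma adjusted p 0.00332 and 0.0191), and Mcm7 did not pass without P7 replicate 3 (limma adjusted p 0.0837).

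Energy genes rose. Of 20 tested genes of glycolysis, lactate and glycogen, 18 rose and none fell (median 1.54), or 17 without P7 replicate 3. Aldoc, the brain aldolase concentrated in astrocytes, went from 746, 795 and 486 to 5617, 5522 and 5360.4 (log2 fold change 3.05, standard error 0.18, limma adjusted p 1.33e-06). Slc16a1, a lactate carrier also found in blood vessel walls, was at 46.7, 56.5 and 56.4 at P7 and at 288, 549 and 457 at P14 (2.95, standard error 0.28, limma adjusted p 1.82e-05). Of 71 tested subunits of the respiratory chain, 46 rose and none fell, with a median of 0.87 (38 rose without P7 replicate 3). The largest rise among them was that of Uqcrfs1, the iron-sulfur subunit of complex III, from 133, 129 and 94.3 to 477, 394 and 293 (1.69, standard error 0.22, limma adjusted p 0.000133). Cytosolic ribosomal proteins, 69 of them tested, stayed around the median of all genes at -0.06, with 6 higher and 4 lower. That split was 10 and 2 in edgeR and 4 and 12 under quantile normalization, and 2 fell without P7 replicate 1 or 2, 9 without P14 replicate 1 and 7 without P14 replicate 2.

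Lipid genes were split. Of 9 genes for lipid export, 5 rose and 2 fell (median 1.12), and 1 fell without any single P7 library. Apoe, the main lipoprotein of astrocytes, went from 1161, 1465 and 469 to 6991, 7523 and 7976 (log2 fold change 3.01, standard error 0.36, limma adjusted p 6.98e-05). Clu rose by 3.86 and Lcat by 3.61 (limma adjusted p 0.000959 and 1.58e-05). Lpl, which frees fatty acids from lipoproteins, fell from 36.3, 47.2 and 16.6 to 7.95, 1.38 and 4.17 (-2.72, standard error 0.57, limma adjusted p 0.00248). Of 21 genes of cholesterol synthesis, 6 rose and 1 fell, with a median of 0.39. Over all tested genes 20.4% rose and 26.6% fell, so the share of rises in this list was near that of all genes. Without P7 replicate 3, 4 rose and 1 fell, without P14 replicate 3, 6 rose and 2 fell, and with array weights 3 rose and 1 fell. Hmgcs1, an early enzyme of that pathway, was at 1629.6, 1688 and 1296 at P7 and at 3739, 3303 and 2872 at P14 (1.10, standard error 0.15, limma adjusted p 0.000137).

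Most matrix genes rose, while the proteoglycan Vcan fell. Of 14 listed genes, 11 were tested, 9 rose and 1 fell (median 2.11). Hapln1, a link protein that ties proteoglycans to hyaluronan, rose from 162, 192 and 26.1 to 2292, 2294 and 2123 (log2 fold change 4.56, standard error 0.64, limma adjusted p 0.000211). The proteoglycan Ncan went from 9608, 13762 and 5803 to 42759, 38248 and 37849 (2.11, standard error 0.24, limma adjusted p 5.57e-05), and Ptprz1, a receptor phosphatase of glia, rose by 1.47 (limma adjusted p 0.00127). Under quantile normalization neither passed, with values of 0.59 and 0.27. The secreted protease Htra1 rose by 3.80 (limma adjusted p 0.000566). Vcan went from 2769.5, 3507 and 6804 to 817, 540.3 and 997 (-2.41, standard error 0.31, limma adjusted p 0.000108).

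Genes linked to reactive astrocytes did not move one way. Of 15 listed genes, 9 were tested, 3 rose and 1 fell, with a median of 0.12. In edgeR 3 rose and none fell, and with array weights none passed. Without P14 replicate 2, 1 of 8 rose and 2 fell, without P7 replicate 1 or 3, 2 rose and none fell, and without P7 replicate 2 or P14 replicate 1, 3 rose and none fell. Gfap, an intermediate filament of astrocytes, was at 168, 175 and 16.0 at P7 and at 565, 633 and 553 at P14 (log2 fold change 2.87, standard error 0.72, limma adjusted p 0.00717). With array weights its limma adjusted p was 0.0718. Immediate early and heat shock genes are induced by neural activity and tissue dissociation. Of 10 tested, none rose, 5 fell and 5 did not pass (median -1.40). Without P7 replicate 3, 4 fell, and without P7 replicate 2, 3 of 9 fell. Egr1 went from 1373, 1763 and 653 to 135, 175 and 285 (-2.62, standard error 0.35, limma adjusted p 0.000137), and Fos from 311, 429 and 154 to 5.96, 52.4 and 58.3 (-3.29, standard error 0.70, limma adjusted p 0.00286).

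Most pan-neuronal genes fell. Of 12 pan-neuronal genes, 10 fell and none rose (median -1.91, 9 without P7 replicate 3), and their summed level was 7369 to 9990.4 at P7 and 3488 to 3801 at P14. Syt1, the calcium sensor of synaptic vesicles, fell from 1239, 862 and 447 to 69.6, 46.9 and 104 (log2 fold change -3.47, standard error 0.35, limma adjusted p 2.74e-05). Map2, a dendritic microtubule protein, fell by 0.48 (standard error 0.11, limma adjusted p 0.00367). With array weights it did not pass (limma adjusted p 0.0912).

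Of 16 genes of bulb neuroblasts and inhibitory interneurons, 14 fell and none rose (median -2.58, 13 without P7 replicate 3). Their summed level was 13341.9 to 24625 at P7 and 4472 to 5462 at P14. Dcx, a microtubule protein of migrating neuroblasts, went from 8199.8, 5396 and 9896 to 1393, 2367 and 1374 (log2 fold change -2.20, standard error 0.25, limma adjusted p 4.78e-05). Dcx RNA was still present in every P14 library. Gad2, which makes GABA, fell from 1108, 839 and 1545 to 153, 172 and 72.2 (-3.18, standard error 0.31, limma adjusted p 1.86e-05), and Meis2 fell by 2.24 (limma adjusted p 8.96e-06). Etv1, at 1429, 1404 and 2397 at P7 and at 1324, 1189.5 and 1339.8 at P14, did not pass (-0.40, standard error 0.18, limma adjusted p 0.0979), except under quantile normalization (-0.78, limma adjusted p 0.00203). Whether other cells in the samples contributed to the falls of neuronal genes was not tested.

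Genes of the projection neurons had the lowest median of the lists. Of 11 listed, 9 were tested and 8 fell, with a median of -4.84. That median was -6.67 with a pseudocount of 0.1, -2.63 with a pseudocount of 8 and -3.49 under quantile normalization. Leaving out 1 library gave 6 (without P7 replicate 2) to 8 falls. Their summed level was 1122 to 1939 at P7 and 159 to 379 at P14. Neurod1, a neuronal differentiation factor, was at 241, 287 and 202 at P7 and at 1.99, 0 and 1.39 at P14. From 1134 reads at P7 and 2 at P14, its scaled level was 235 times higher at P7 (95% exact interval 64.8 to 1939, counting error only). Neurod6, at 22.7, 42.9 and 38.0 at P7, had no read in any P14 library and was at least 7.26-fold lower there, against a floor of 3 reads in each library. Tbr1, a factor of glutamatergic neurons, was at 168, 276 and 186 at P7 and at 0, 0 and 25.0 at P14. Eomes, a factor of the same lineage, was at 199.7, 300.2 and 179 at P7 and at 5.96, 0 and 16.7 at P14.

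**Figure D3:**
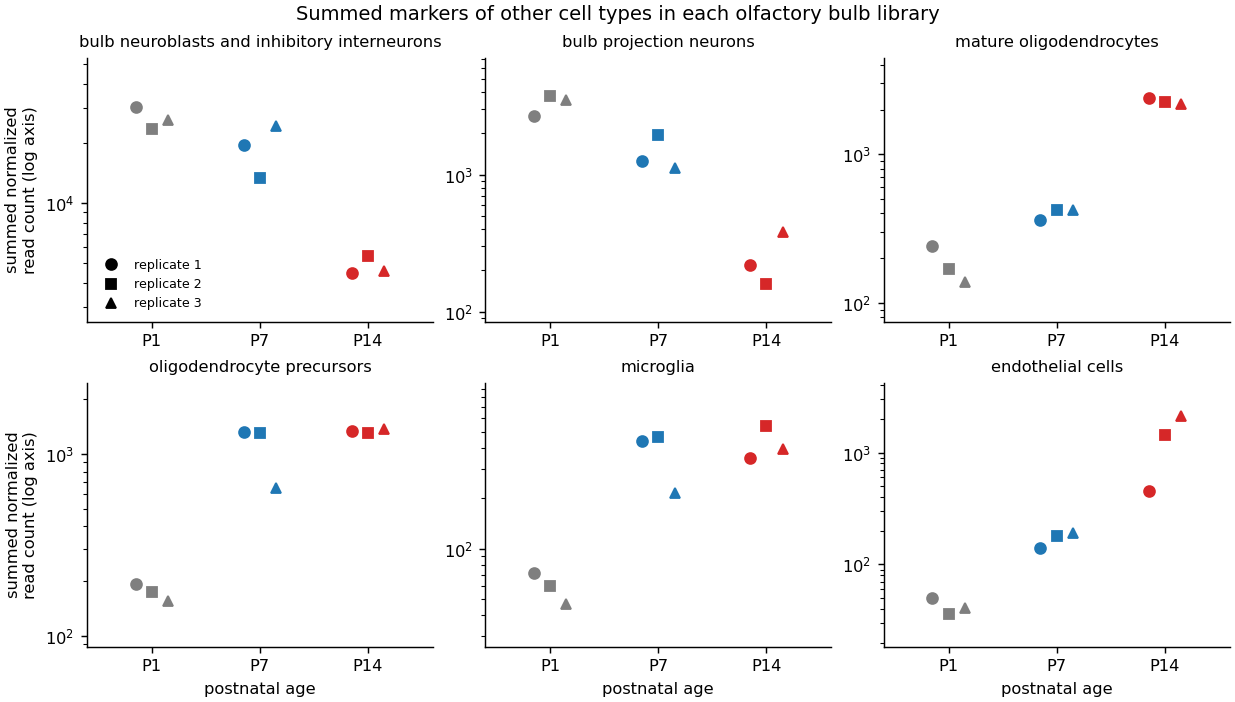
Summed normalized read count (log axis) of the listed markers of 6 other cell types in each olfactory bulb library at P1, P7 and P14. Both neuronal sums are lower in every P14 library than in every P7 library, the mature oligodendrocyte sum is higher (361 to 425 against 2195 to 2407), and the endothelial sum of P14 replicate 1 lies below those of the other P14 libraries.

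Some markers of other glia and of vessels rose. Of 12 genes of mature oligodendrocytes, 8 were tested and 6 rose (median 2.66). The P14 level helped to decide which of these genes were tested. Leaving out P14 replicate 2 left 6 tested, of which 5 rose. Without the filter on the mean, 6 of 11 rose, with a median of 2.26, beside 2327 of all 18886 genes. Mbp, the major myelin protein, went from 61.4, 56.5 and 45.1 to 372, 504 and 487 (log2 fold change 3.04, standard error 0.24, limma adjusted p 6.15e-06). Mobp had no reads at P7 and stood at 41.7, 24.8 and 34.7 at P14, at least 17.6-fold higher against a floor of 3 reads in each library. The late myelin genes Mag and Opalin had no reads at P14. Of 7 tested genes of oligodendrocyte precursors, 2 rose and 2 fell (1 and 3 without P7 replicate 3, 2 and 1 without P7 replicate 1). Their median was -0.35, and over all tested genes 20.4% rose and 26.6% fell, so this list moved much as all genes did. Pdgfra, their defining growth factor receptor, fell from 536, 551 and 245 to 117, 203 and 45.8 (-2.01, standard error 0.48, limma adjusted p 0.00551), while Olig1 rose from 218, 202 and 105 to 751, 663 and 764 (2.11, standard error 0.26, limma adjusted p 8.14e-05).

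Of 7 tested microglial genes none passed in limma or in edgeR on all 9 libraries at full depth, 1 passed in DESeq2, and 1 had an unadjusted limma p under 0.05. P2ry12, a microglial purine receptor, was at 93.4, 82.9 and 43.9 at P7 and at 139, 142 and 88.9 at P14 (log2 fold change 0.78, standard error 0.35, limma adjusted p 0.0887). It was the gene that passed in DESeq2 (adjusted p 0.0455), and it also passed in edgeR on thinned reads (0.98, edgeR adjusted p 0.0250) and in limma without P14 replicate 3 (1.00, limma adjusted p 0.0390). Of 10 tested endothelial genes, 8 rose in limma and 10 in edgeR, with a limma median of 2.19. These genes were low at P7, so some could be tested through their P14 level alone. Without the filter on the mean, 8 of 12 rose in limma, beside 2327 of all 18886 genes. The summed endothelial level was 140.1 to 193 at P7 and 449 to 2127 at P14. Abcb1a, an efflux pump of the blood-brain barrier, was at 6.76, 10.01 and 18.4 at P7 and at 53.7, 363 and 285 at P14 (3.91, standard error 0.68, limma adjusted p 0.000805). P14 replicate 1 held the lowest summed endothelial level of the P14 libraries. The count of endothelial genes that rose was 11 of 11 without that library, 6 without any of P14 replicate 2, P14 replicate 3, P7 replicate 1 or P7 replicate 3, and 5 without P7 replicate 2. Rgs5, a pericyte gene, rose by 1.89 (standard error 0.55, limma adjusted p 0.0156), and did not pass without P7 replicate 2, P14 replicate 2 or P14 replicate 3. It was the 1 gene to rise of 9 tested in mural cells and fibroblasts, of which 3 rose in edgeR. Without P14 replicate 1, 3 of 8 rose and 1 fell in that list. Ensheathing cells, the glia that wrap olfactory axons, share Fabp7 with young astrocytes. Of 7 tested genes of that list 3 rose, or 4 in edgeR and 1 with array weights. Without P7 replicate 1, 1 rose, and without any other single library 2 rose. Its summed level, mostly Fabp7, was 3906 to 6323 at P7 and 11396 to 15643 at P14. Olfactory sensory neurons and ependymal cells had summed levels of 79.9 to 262 and 41.7 to 57.9 at P14, and the globin genes had no reads there.

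Outside these lists, the 10 largest rises that met the naming rule were led by Dio2. Dio2 activates thyroid hormone and is made by glia in the brain. Its counts were 232, 282 and 56.4 at P7 and 4741, 5742 and 4497 at P14 (log2 fold change 4.99, standard error 0.48, limma adjusted p 1.82e-05). Tst, a mitochondrial sulfurtransferase, and Cd38, an enzyme that consumes NAD, followed with 4.47 and 4.39 (limma adjusted p 1.54e-05 and 7.57e-05). Fndc5, Tuba4a and Efhd1 rose by 4.25, 4.22 and 4.19. The growth factor gene Fgf1 was at 187, 237 and 43.3 at P7 and at 2475, 1883 and 2532 at P14 (4.18, standard error 0.49, limma adjusted p 6.45e-05). Hopx, known from radial glia and stem cells, rose by 4.10, and the hypoxia factor gene Epas1 by 4.01. Fam107a, a cytoskeletal gene of astrocytes, was steady at P7, at 24.0, 28.6 and 23.7, and rose to 396, 427 and 397 (3.95, standard error 0.22, limma adjusted p 1.15e-06). P7 replicate 3 held the lowest P7 count of each of these 10 genes.

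The 10 largest falls were led by Zfp57, a zinc finger gene that guards imprinted methylation. It stood at 281, 345 and 529.8 at P7 and at 3.98, 6.89 and 0 at P14 (log2 fold change -6.78, standard error 0.61, limma adjusted p 1.31e-05). Igfbpl1, known from neuroblasts, followed with -5.80 (limma adjusted p 0.000124). Several of the others belong to neuronal membranes and synapses. The GABA-A receptor partner Shisa7 changed by -5.66, and the synaptic adhesion proteins Slitrk4 and Lrrtm4 by -5.64 and -5.61. The axonal adhesion protein Cntn2 changed by -5.32 and the presynaptic calcium channel Cacna1b by -4.64. The long noncoding RNA Miat and the genes Stxbp5l and Mdga1 had changes of -5.05, -5.04 and -4.70. In edgeR the values were smaller for several of these genes, at -3.39 for Mdga1, -4.71 for Shisa7 and -4.69 for Lrrtm4. At P14 each of these genes had at most 30 reads in a library, so the fold changes rest on few reads and on the pseudocount of 1.

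**Figure D4:**
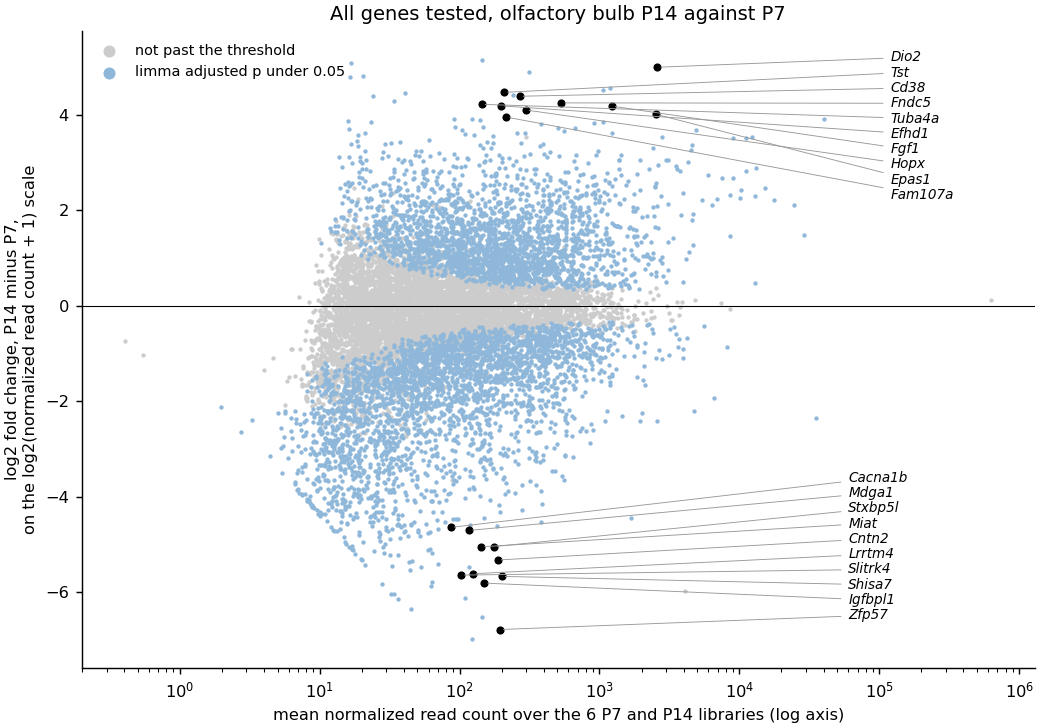
Log2 fold change from P7 to P14 against the mean normalized read count over the 6 libraries (log axis) for 11490 tested genes, blue where the limma adjusted p was under 0.05. The named black points are the 10 largest rises (3.95 to 4.99) and the 10 largest falls (-4.64 to -6.78) by the naming rule.

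The same interval was compared with that in cortex and hippocampus, to ask which changes differed in the bulb. The change in the bulb minus the mean change in the other regions was tested on recovered reads with edgeR. The difference passed for 2353 of 13510 genes (17.4%), with the bulb change above for 1654 (12.2%) and below for 699 (5.17%). Gabbr2 had changes of 2.62 in the bulb, 0.98 in cortex and 0.97 in hippocampus, a difference of 1.65 (edgeR adjusted p 0.00101). Gabbr1 went the other way, with changes of 0.05, 0.88 and 0.89 and a difference of -0.84 (edgeR adjusted p 0.0017). Of the 10 astrocyte markers, 9 had a bulb change above that of the other regions, with medians of 3.05 in the bulb, 0.78 in cortex and 1.12 in hippocampus.

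Cell cycle genes differed between the regions as well. The bulb change lay above for 15 of 29 and below for none, with medians of 0.09 in the bulb, -2.25 in cortex and -1.20 in hippocampus. Top2a changed by 0.71, -2.97 and -0.69 (difference 2.54, edgeR adjusted p 0.00131), and against hippocampus alone it did not pass (0.128). Of 21 genes of cholesterol synthesis the bulb change lay above for none and below for 1, with medians of 0.45, 0.17 and 0.56. Endothelial genes lay above for 12 of 12, with medians of 2.73, 0.15 and -4.08, and they led the positive differences. Whether vessel cells in the samples contributed to the other differences between regions was not tested.

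**Figure D5:**
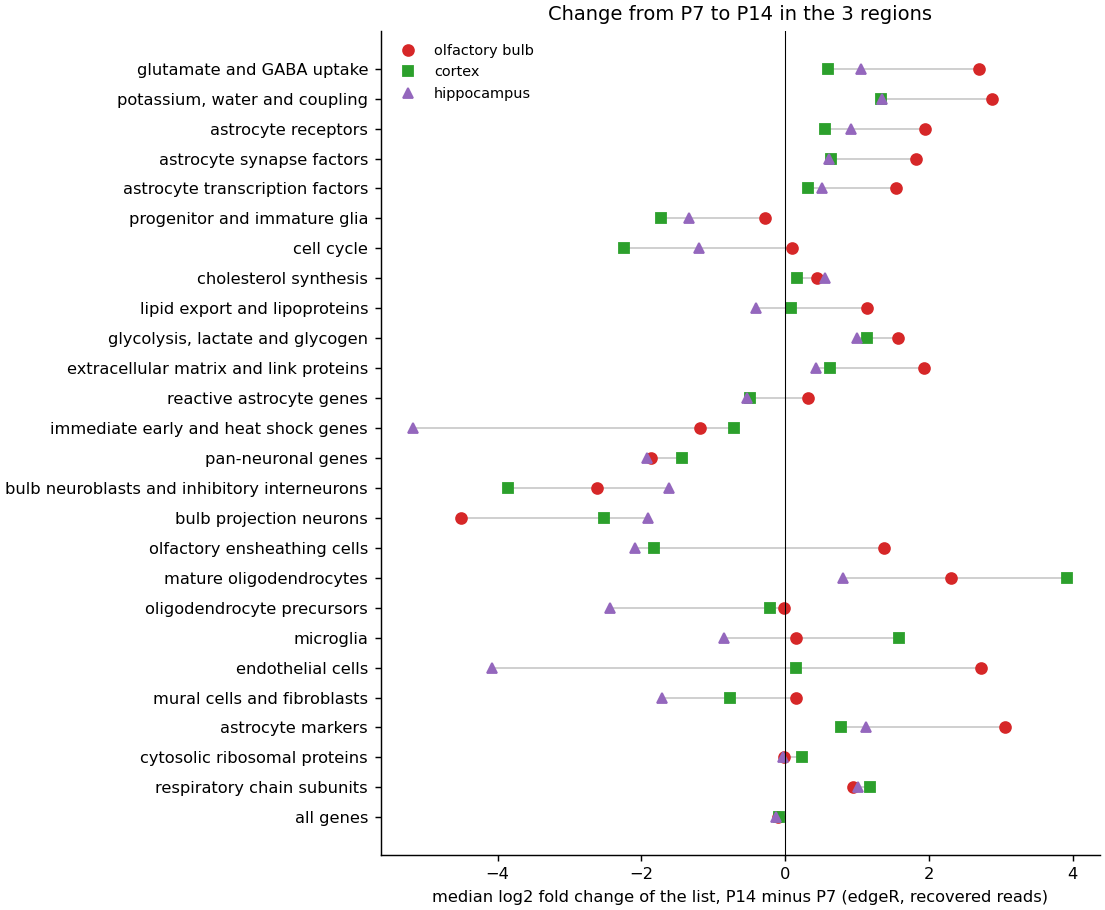
Median log2 fold change from P7 to P14 of each gene list with at least 7 tested members, by edgeR, in olfactory bulb, cortex and hippocampus. The bulb median lies to the right for the astrocyte lists, cell cycle genes (0.09 against -2.25 and -1.20) and endothelial genes (2.73 against 0.15 and -4.08), and to the left for genes of bulb projection neurons.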

How the data were processed

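RNA-seq libraries were labelled as olfactory bulb astrocytes at P1, P7 and P14 (3 each). STAR 2.5.0a, DESeq2 1.20.0 and build mm10 are named in the submitters' processing notes, while the counter, strand setting and annotation are not given in the sources used here. The authors deposited 1 table per region, with a normalized signal for each gene. Every value was a whole multiple of 1 step per library, so gene reads were recovered, and 100% of values came out whole within 0.02. Regions were scaled separately and were set against each other only on recovered reads.

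Genes with a mean of at least 10 over the 9 olfactory bulb libraries were tested on log2(value + 1) with limma 3.58.1 (R 4.3.3, eBayes with trend), contrast P14 minus P7, with Benjamini-Hochberg adjustment over all genes and a threshold of 0.05. Fold changes on this scale are differences of mean log values, so for low genes they depend on the pseudocount and on libraries at 0, and can be smaller or larger than a ratio of means. The difference between regions used edgeR 4.0.16 (quasi-likelihood, TMM) on 19 P7 and P14 libraries. Alternatives were other pseudocounts, filters, scalings and limma settings, edgeR, DESeq2 1.42.0, thinned reads, fits of the 2 ages alone, and leaving out each replicate. The edgeR fit of P7 and P14 libraries alone was chosen after seeing the data. The procedure was also run on simulated data. There most changes of 1 on the log2 scale did not pass, so a gene that did not pass may still have changed. For P14 against P7, unadjusted p under 0.05 was also too common among unchanged genes.

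Named genes were list members, described singly where level or change was largest, Gabbr1 and Gabbr2, the 10 largest rises and falls called by limma and edgeR with a mean at or above the median and no overlap of the ages, and the 5 largest differences between regions each way. Predicted genes and list members were left out of the rises and falls. The members and lists were chosen with earlier results of these data known. Some genes, such as Fabp7, are in more than 1 list. The astrocyte markers Slc1a2, Slc1a3, Aqp4, Gja1, Atp1b2, Aldoc, Sox9 and Gfap are also in other lists, so the counts of those lists are not independent. The values of 3 single list members are not reported here.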

Additional observations from a re-analysis of the deposited data

Results flagged for a closer look

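Results whose change from P7 to P14 differed between the olfactory bulb and the mean of cortex and hippocampus, by the edgeR test of the difference itself, are given here. The difference passed for 2353 genes. The most positive differences were those of Cd93 (6.57), Abcc9 (6.34), Tex15 (5.91), Adgrf5 (5.87) and Adgrl4 (5.68). Cd93, Adgrf5 and Adgrl4 are known from endothelial cells and Abcc9 from pericytes. Cd93 changed by 3.15 in the bulb, -1.49 in cortex and -5.35 in hippocampus (edgeR adjusted p 4.68e-05). Abcc9 stood at 35.03, 31.5 and 40.9 in the P7 libraries and at 11.9, 365 and 309.6 in the P14 libraries of the bulb, so that P14 replicate 1 lay below all P7 libraries. Tex15, a germ cell gene, changed by -0.12 in the bulb, -3.94 in cortex and -8.13 in hippocampus (edgeR adjusted p 5.61e-05).

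The most negative differences were those of Nrn1 (-5.51), Deptor (-4.63), Neurod1 (-4.60), Lypd6 (-4.00) and Cntn2 (-3.83). Nrn1, a neuronal surface protein, changed by -4.14 in the bulb, 1.47 in cortex and 1.26 in hippocampus (edgeR adjusted p 5.87e-06), and Deptor, an inhibitor of the kinase mTOR, by -3.17, 1.29 and 1.62 (edgeR adjusted p 1.02e-05). The difference of Neurod1 did not pass against cortex alone, at -2.89 (edgeR adjusted p 0.247). Gabbr1 and Gabbr2 differed in opposite directions, at -0.84 and 1.65.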

How the results depend on the processing

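No paired analysis was possible because the labels give no replicate numbers shared between the ages. With a minimum mean of 100, 3007 genes changed, 1523 higher and 1484 lower, since fewer genes were tested. In edgeR on the P7 and P14 libraries alone, 2027 fell, and the cause was not tested. The count of changed genes was 4101 with array weights, 4160 in limma on P7 and P14 alone and 6806 without a filter (2327 higher, 4479 lower). In DESeq2 2904 were higher and 2903 lower. Leaving out each library gave 4201 (without P7 replicate 3) to 5925 (without P14 replicate 2). Of 111 named genes 102 passed. Many were named because they passed or had a large change, so that count was largely set by the choice. Of the 102, 93 passed in every setting that tested them, and a setting could leave a gene untested. With a minimum mean of 100, 97 of the 111 were tested.

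Values with the opposite sign were those of genes that did not pass. Gabbr1 was at -0.19 under quantile normalization and at -0.0687 (without P14 replicate 1) to 0.134 (without P14 replicate 2) when 1 library was left out. Gabra2 was at -0.0328 under quantile normalization and at -0.13 (without P14 replicate 1) to 0.39 (without P14 replicate 3). Nfib was at 0.0565 under TMM scaling, 0.0890 with array weights, 0.0126 in edgeR and 0.00927 in edgeR on thinned reads, and at -0.18 (without P7 replicate 1) to 0.30 (without P7 replicate 3). Under quantile normalization Nfib fell by 0.64 and passed (limma adjusted p 0.0182). Neat1 was at -0.86 (without P14 replicate 2) to 0.19 (without P14 replicate 1). The causes were not tested. The lower depth and the wider spread at P14 limit what low genes can show, and the spread pooled over ages understates that of P14.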

Other observations

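Several long noncoding RNAs that stay in the nucleus or come from imprinted loci were lower at P14. They were chosen after their values were seen. Malat1 took 1.61% to 2.81% of the reads at P7 and 0.220% to 0.434% at P14, and its log2 fold change was -2.35 (standard error 0.32, limma adjusted p 0.000181). Meg3, a maternally expressed RNA of the Dlk1 locus, was at 2719.7, 3744 and 3116 at P7 and at 167, 86.8 and 211 at P14 (-4.44, standard error 0.31, limma adjusted p 3.02e-06). Rian, from the same locus, was at 656, 749.9 and 727 at P7 and at 19.9, 60.6 and 87.5 at P14 (-3.87, limma adjusted p 3.19e-05). Kcnq1ot1, a paternally expressed antisense RNA, fell by 3.15 (limma adjusted p 4.1e-06) and Snhg11 by 4.52 (limma adjusted p 0.00623). Neat1, the scaffold of nuclear paraspeckles, was at 57.8, 169 and 64.1 at P7 and at 27.8, 123 and 77.7 at P14, overlapping ranges (-0.40, standard error 0.57, limma adjusted p 0.582). Without stated strand, reads of Kcnq1ot1 and of the gene it overlaps cannot be told apart.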
